A study of Mus musculus with 12 samples.

Results

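The genes described here are 10 mouse genes of the endoplasmic reticulum (ER) stress response and of protein folding in the ER: Xbp1, Ern2, Ddit3, Hspa5, Hsp90b1, Dnajc3, Sdf2l1, Pdia4, Pdia6 and Creld2. They were taken by name from the 19012 gene symbols of the deposited tables, with the transcript of the longest exons for each symbol. Of the 10, 9 were found under these symbols, and Dnajc3 was found through its RefSeq accession under the older symbol Dnajc3a. In the deposited mm9 annotation Xbp1 lies on chromosome 11, Ern2 on 7, Ddit3 and Hsp90b1 on 10, Hspa5 on 2, Dnajc3 on 14, Sdf2l1 on 16, Pdia4 on 6, Pdia6 on 12 and Creld2 on 15. Poly(A) RNA was sequenced in 12 libraries of mouse small intestine. Organoids, villi and crypts were each sampled from ileum, jejunum and duodenum, with 1 organoid library, 1 villus library and 2 crypt libraries per origin. The organoids are epithelial cultures grown from isolated crypts without mesenchyme and kept in culture for 12 weeks, and the villi and crypts were freshly isolated; the labels give no strain, age, sex or genotype. The labels do not say that the crypt replicates come from separate animals, so p-values measure only the spread between these samples.

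Secretory cells fold their cargo in the ER with the help of chaperones (Hspa5, also called BiP, and Hsp90b1, also called GRP94), the co-chaperones that work with them, and protein disulfide isomerases that form disulfide bonds. When unfolded protein builds up, sensors in the ER membrane start the unfolded protein response. IRE1 (made as an alpha form from Ern1 and a beta form from Ern2) splices Xbp1 mRNA into the form that encodes an active transcription factor, ATF6 raises transcription of chaperone genes, and PERK (Eif2ak3) acts through Atf4 on Ddit3, which encodes the factor CHOP. In the intestine Xbp1 is known to be needed for Paneth and goblet cells, which secrete antimicrobial peptides and mucus, and Ern2 is known as a sensor of mucosal epithelium. An RPKM value per gene does not separate spliced from unspliced Xbp1 mRNA.

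Promoters of 9 of the 10 genes were found in RefSeq's table for build GRCm38.p6, and Ern2 had no entry. The ER stress response element, CCAAT followed by 9 bases of any kind and CCACG, is the sequence through which ATF6 and NF-Y act on chaperone genes. The exact element, searched on both strands in the 250 bases before the start site, was present in 5 of these 9 promoters (Hspa5, Hsp90b1, Pdia6, Dnajc3 and Creld2), and in 37 of all 32851 promoters of the same length, which is 0.113%. Its parts are common: CCAAT was in 8 of the 9 promoters and in 33.8% of all, and CCACG was in 6 of the 9 and in 28.3% of all. The windows below show each element with 20 bases on either side, since they are what these 5 genes share in sequence. They run 5′ to 3′ on the strand of the gene. Capitals mark CCAAT and CCACG, or CGTGG and ATTGG where the element lies on the opposite strand.
Hspa5, chr2:34772005-34772063, plus strand, element from 65 to 47 bases before the start: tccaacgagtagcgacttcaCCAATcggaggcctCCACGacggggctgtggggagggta
Hsp90b1, chr10:86705618-86705676, minus strand, 212 to 194 bases before the start: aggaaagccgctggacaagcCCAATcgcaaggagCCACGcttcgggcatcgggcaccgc
Hsp90b1, chr10:86705513-86705571, minus strand, 107 to 89 bases before the start: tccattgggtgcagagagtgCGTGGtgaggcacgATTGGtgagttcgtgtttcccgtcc
Pdia6, chr12:17266471-17266529, plus strand, 98 to 80 bases before the start: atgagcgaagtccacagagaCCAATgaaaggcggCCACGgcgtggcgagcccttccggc
Dnajc3, chr14:118937807-118937865, plus strand, 105 to 87 bases before the start: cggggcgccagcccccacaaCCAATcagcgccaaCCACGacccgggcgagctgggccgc
Creld2, chr15:88819500-88819558, plus strand, 126 to 108 bases before the start: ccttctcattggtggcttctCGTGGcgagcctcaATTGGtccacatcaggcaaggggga

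These letters were not in the windows of Xbp1, Ddit3, Sdf2l1 and Pdia4. A shorter related element, ATTGG, 1 base and CCACG, was in none of the 9 windows and in 0.0304% of all. The core TGACGTGG bound by spliced XBP1 in other genes was in none of the 9 and in 0.563% of all, and the core TGATGCAAT of C/EBP-ATF sites was in none of the 9 and in 0.167% of all. A match here describes letters in a window and is not a measured binding site. An absence covers only the 250 bases before the start site, since bases further upstream were not searched.

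The libraries held 5268480 to 18591819 reads, of which 44.3% to 75.8% lay in annotated genes, as recovered from the steps of the deposited values. The values of the 10 genes rest on 33 reads (Sdf2l1 in duodenal crypt replicate 1) to 4501 reads (Xbp1 in ileal organoids). Levels are given in RPKM, a read number scaled to exon length and to the size of the library. The 2 crypt libraries of an origin stood apart from each other. The summed RPKM of 12 enterocyte markers was 9553 to 24686 in crypt replicate 2 and 983 to 2115 in crypt replicate 1, with 12 of 12 markers higher in replicate 2 at every origin. The summed RPKM of 12 Paneth markers was 7881 to 51862 in replicate 2 and 37616 to 142879 in replicate 1. Of the 12, 10 were lower in replicate 2 at every origin. Guca2b was higher in replicate 2 at every origin, and Defcr5 was at 0 in every library. Villi held 50668 to 100956 RPKM of the enterocyte markers and 10.9 to 37.1 RPKM of 7 stem and transit markers, against 123 to 1204 RPKM of the stem markers in crypts. The Paneth markers summed to 43771 to 97961 RPKM in organoids and 5478 to 6822 RPKM in villi, and of the 11 tested 1 was higher and 10 were lower in villi against crypts, with a median log2 change of -5.27. The higher one, Guca2b, had 3409 to 6591 RPKM in villi and so made up most of the villus sum. Of 8 goblet markers 1 was higher and 5 were lower in villi against crypts (median -0.99). The part of these secretory cells in the fall of Ern2, Hspa5, Hsp90b1, Pdia4, Pdia6 and Creld2 in villi, described below, was not tested. The bulk values cannot tell fewer cells of a type from less RNA per cell.

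The 10 genes themselves differed between the crypt replicates, most of them in the same direction at all 3 origins. Xbp1, Hspa5, Hsp90b1, Sdf2l1, Pdia4, Pdia6 and Creld2 were higher in replicate 2 at all 3 origins, as were 35.1% of the 11825 genes tested. Ern2 and Ddit3 were lower in replicate 2 at all 3 origins, as were 13.9% of genes, and Dnajc3 was mixed. Sdf2l1 had the widest gap upward, with log2 differences of replicate 2 minus replicate 1 of 1.63 in ileum, 1.38 in jejunum and 2.20 in duodenum. Ern2 had the widest gap downward, with -1.47, -1.23 and -2.16 at the same origins. The median difference over the 10 genes was 0.54, 0.24 and 1.19 in ileum, jejunum and duodenum, beside 0.09, 0.00 and 0.46 over all genes. The part of the marker differences in these gaps was not tested. For most of the 10 genes, changes against crypts are therefore also given against 1 or both crypt replicates alone. The gene lists further below are compared only with all crypt libraries together, with RPKM as deposited.

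**Figure D1:**
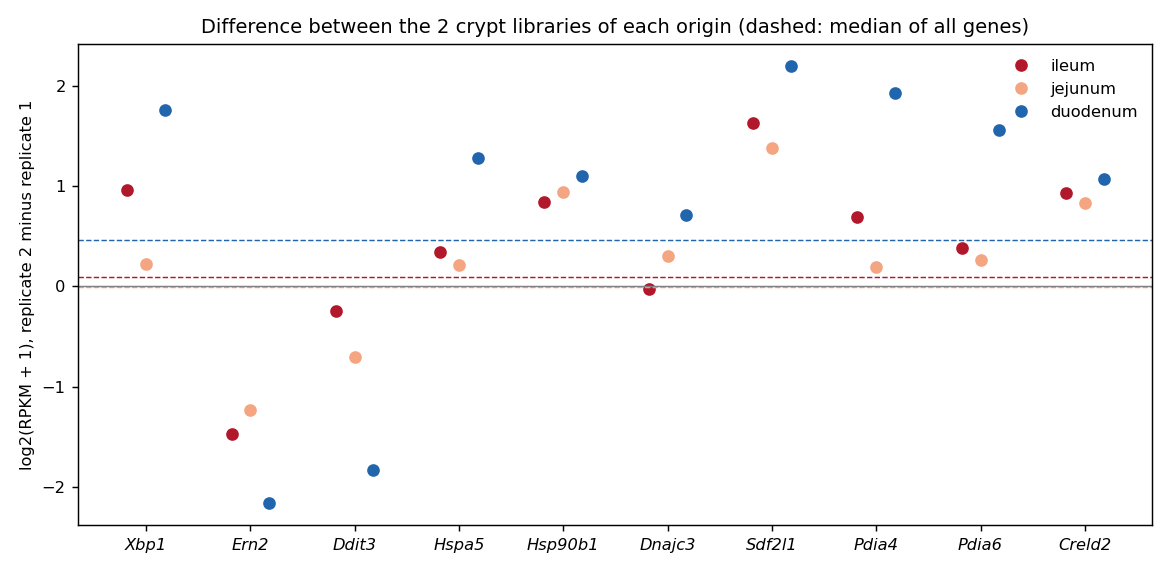
Difference on the log2(RPKM + 1) scale between crypt replicate 2 and crypt replicate 1 for each gene, with 1 point per origin and dashed lines at the median of all genes of that origin. Sdf2l1 lies at 1.38 to 2.20 and Ern2 at -2.16 to -1.23, on opposite sides of 0 at every origin.

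Between tissues, 6 of the 10 genes fell in villi against crypts, 4 differed between organoids and crypts, and 4 differed between organoids and villi. The test was limma on log2(RPKM + 1) over all genes with origin as a second term, and the threshold was a Benjamini-Hochberg adjusted p of 0.05. In organoids against crypts Xbp1 rose and Ern2, Creld2 and Ddit3 fell, where 47.4% of the 11825 genes tested passed (23.3% higher and 24.0% lower). In villi against crypts Hspa5, Hsp90b1, Pdia4, Pdia6, Ern2 and Creld2 fell and none rose, where 52.8% passed (20.3% higher and 32.5% lower). In organoids against villi Hsp90b1, Pdia4 and Pdia6 were higher and Ddit3 was lower, where 61.6% passed (36.0% higher and 25.6% lower). All 10 genes passed the filter on low values, and each comparison shares its libraries with the other two. The share of members called in organoids against crypts and in organoids against villi is thus not above that of all genes, and that in villi is close to it.

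**Figure D2:**
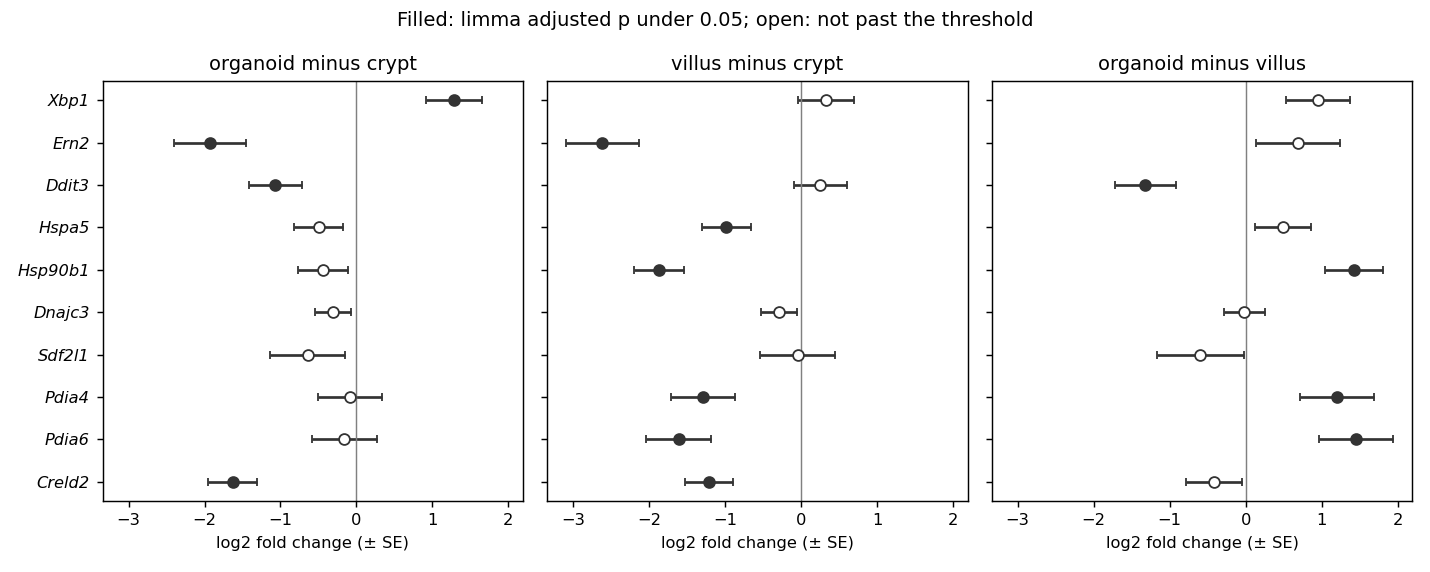
Log2 fold change with its SE for each gene in organoids against crypts, villi against crypts and organoids against villi, from limma on log2(RPKM + 1). Filled points passed the threshold: Xbp1 lies at 1.29 in the first panel, and the 6 filled points of the second panel lie between -2.62 and -0.99.

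The median log2 change of the 10 genes was -0.47 in organoids against crypts, beside 0.00 over all genes tested. It was -1.10 in villi against crypts, beside -0.19 over all genes, and 0.59 in organoids against villi, beside 0.21. Scaling moves these levels. With TMM scaling the median of all genes in villi against crypts was -0.03 and that of the 10 genes -0.81. With RPKM rescaled to the reads in annotated genes they were -0.42 and -1.45. In villi against crypts 2402 genes were higher and 3845 lower as deposited, 3406 and 3250 with TMM, and 1804 and 5043 with annotated-gene scaling, and in organoids against crypts 2760 and 2843 as deposited became 2110 and 3598 with annotated-gene scaling. Under annotated-gene scaling Hspa5, Hsp90b1 and Dnajc3 also passed as lower in organoids against crypts, with log2 changes of -0.79, -0.74 and -0.58 (limma adjusted p = 0.0271, 0.0303 and 0.0411), and Dnajc3 in villi against crypts, with -0.63 (adjusted p = 0.0236).

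Xbp1, the transcription factor on which the IRE1 arm acts, was highest in organoids. It had 181, 134 and 173 RPKM in organoids of ileum, jejunum and duodenum, and 107, 78.5 and 67.4 RPKM in villi of the same origins. Crypts had 47.4, 58.9 and 36.1 RPKM in replicate 1 and 92.8, 68.7 and 124 RPKM in replicate 2. Every organoid library was above every villus and crypt library, and villi and crypts overlapped. The mean was 163 ± 25.4 RPKM in organoids (SD, n = 3), 84.4 ± 20.6 in villi (n = 3) and 71.3 ± 32.3 in crypts (n = 6). The log2 change of organoids against crypts was 1.29 ± 0.37 (SE), a fold of 2.44 (limma adjusted p = 0.0118). It was 1.77 against crypt replicate 1 alone (adjusted p = 0.000219) and 0.80 against crypt replicate 2 alone (adjusted p = 0.0274). The call was lost without the duodenal organoid library (adjusted p = 0.0603) and without the ileal one (0.0589). Organoids against villi gave 0.95 ± 0.42 with an adjusted p of 0.0656, and 0.00803 with the crypt replicate number as a block. It also passed with annotated-gene scaling (1.03, adjusted p = 0.0126) and without either duodenal crypt library (0.0341 without replicate 1 and 0.0223 without replicate 2). Villi against crypts gave 0.33 ± 0.37 (adjusted p = 0.466), which was 0.82 against replicate 1 alone (adjusted p = 0.0181), -0.16 against replicate 2 alone (adjusted p = 0.65) and -0.04 with annotated-gene scaling. The summed RPKM of 8 goblet markers was 15679 to 35425 in organoids, 11143 to 23623 in villi and 5354 to 25797 in crypts. Most of the villus sum came from Tff3 (4072 to 8872 RPKM) and 1810010M01Rik (6242 to 13360 RPKM). Of the 8 goblet markers, 4 rose and 0 fell in organoids against crypts (median log2 change 1.05). The summed RPKM of 10 enteroendocrine markers was 1243 to 2693 in organoids, 492 to 909 in villi and 187 to 593 in crypts, with 7 higher and 0 lower in organoids against crypts (median 1.51). Of 11 tested Paneth markers 1 rose and 1 fell in organoids against crypts (median 0.08). The part of these secretory cells in the Xbp1 levels was not tested.

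Ern2, which encodes the beta form of IRE1, was highest in crypts. It had 4.76, 7.49 and 2.89 RPKM in organoids of ileum, jejunum and duodenum, and 4.36, 2.73 and 1.26 RPKM in villi. Crypts had 49.7, 27.1 and 38.4 RPKM in replicate 1 and 17.3, 10.98 and 7.81 RPKM in replicate 2. Every crypt library was above every organoid and villus library, although the lowest crypt library (7.81) was close to the highest organoid library (7.49). Ern2 fell by 1.92 ± 0.48 on the log2 scale in organoids against crypts (SE, limma adjusted p = 0.00528) and by 2.62 ± 0.48 in villi against crypts (adjusted p = 0.0006). Organoids and villi overlapped, with a log2 difference of 0.69 ± 0.55 (adjusted p = 0.291). Against crypt replicate 1 alone the changes were -2.73 in organoids (adjusted p = 4.73e-05) and -3.43 in villi (3.7e-06), and against replicate 2 alone -1.11 (0.00893) and -1.80 (0.000439). Leaving out the ileal organoid library gave -1.67 in organoids against crypts with an adjusted p of 0.0502. Across the 12 libraries Xbp1 and Ern2 had a Pearson correlation of -0.62, a description over libraries that share origins and preparations.

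Ddit3, which encodes CHOP, a factor linked to cell death under lasting ER stress, was lowest in organoids. It had 11.5, 9.57 and 15.1 RPKM in organoids of ileum, jejunum and duodenum, and 23.4, 29.0 and 44.1 RPKM in villi. Crypts had 27.6, 31.9 and 53.4 RPKM in replicate 1 and 23.1, 19.2 and 14.2 RPKM in replicate 2. Every organoid library was below every villus library, while duodenal crypt replicate 2 lay within the organoid range. Organoids were lower than villi by a log2 change of -1.32 ± 0.40 (SE, limma adjusted p = 0.0121), a call lost without the jejunal organoid library (0.055) and without the duodenal villus library (0.0595). Organoids against crypts gave -1.07 ± 0.35 (adjusted p = 0.0234), or -1.53 against replicate 1 alone (adjusted p = 0.000148) and -0.60 against replicate 2 alone (0.111). This call was also lost without any 1 of the 3 organoid libraries (adjusted p = 0.0743, 0.106 and 0.0674 without ileum, jejunum and duodenum), with TMM scaling (0.0525) and with limma-voom on recovered reads (0.0521). Villi against crypts gave 0.25 ± 0.35 (adjusted p = 0.563), with -0.11 under annotated-gene scaling and -0.21 against replicate 1 alone. Ddit3 and Xbp1 had a Pearson correlation of -0.85 over the 12 libraries.

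**Figure D3:**
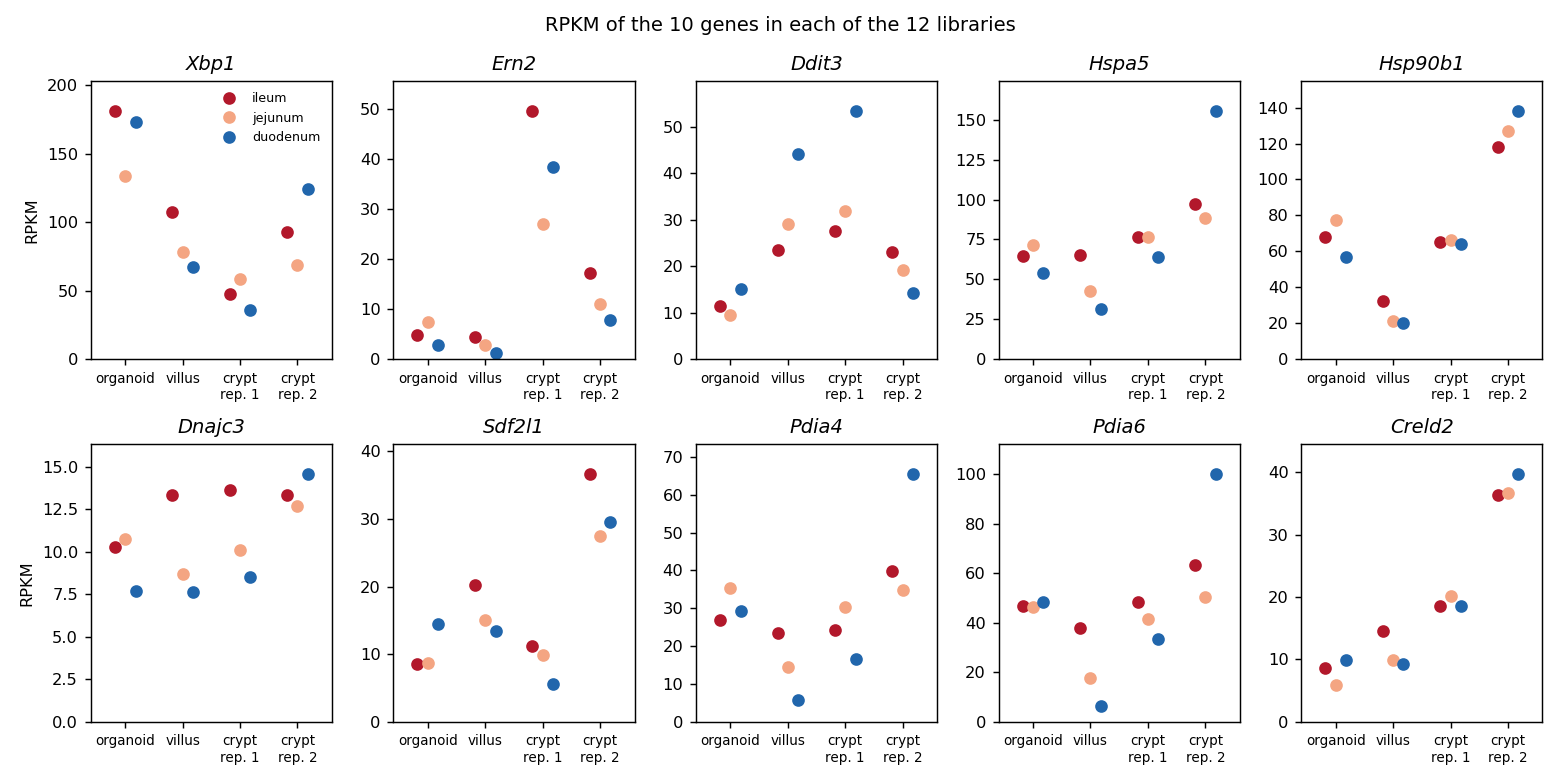
RPKM of each gene in every library, with organoids, villi and the 2 crypt replicates along the horizontal axis and colours for the origins; each vertical axis starts at 0. Xbp1 is at 134 to 181 RPKM in organoids and at 36.1 to 124 RPKM in crypts, whereas Ern2 is at 2.89 to 7.49 RPKM in organoids and at 7.81 to 49.7 RPKM in crypts.

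The 2 major ER chaperones fell in villi, Hsp90b1 more than Hspa5. Hsp90b1, the HSP90 of the ER, had 67.9, 77.6 and 56.6 RPKM in organoids of ileum, jejunum and duodenum and 32.5, 21.5 and 20.3 RPKM in villi. Crypts had 65.2, 66.1 and 63.8 RPKM in replicate 1 and 118, 127 and 138 RPKM in replicate 2. Villi lay below every library of the other tissues, and organoids overlapped crypt replicate 1. Villi fell by 1.87 ± 0.33 on the log2 scale against crypts (SE, limma adjusted p = 0.000509), and organoids were higher than villi by 1.43 ± 0.38 (adjusted p = 0.00575). Both calls held without any 1 of the 12 libraries, and the change in villi was -1.39 against crypt replicate 1 alone and -2.35 against replicate 2 alone (adjusted p = 0.000311 and 2.99e-05). Organoids against crypts gave -0.44 ± 0.33 (adjusted p = 0.289), which was 0.04 against replicate 1 alone and -0.92 against replicate 2 alone (adjusted p = 0.903 and 0.00965).

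Hspa5, the HSP70 of the ER that also holds the stress sensors inactive, had 64.6, 71.5 and 53.6 RPKM in organoids of ileum, jejunum and duodenum and 64.9, 42.6 and 31.6 RPKM in villi. Crypts had 76.4, 76.2 and 63.8 RPKM in replicate 1 and 96.9, 88.2 and 156 RPKM in replicate 2. The ileal villus library, at 64.9 RPKM, reached the lower end of the crypts, so the groups overlapped. The log2 change in villi against crypts was -0.99 ± 0.32 (SE, limma adjusted p = 0.0205), and it passed against each crypt replicate alone (-0.68 and -1.29, adjusted p = 0.0269 and 0.00475). It was lost without the duodenal villus library (-0.73, adjusted p = 0.14) and without the jejunal one (0.0805). Organoids against crypts gave -0.50 ± 0.32 (adjusted p = 0.22) and organoids against villi 0.49 ± 0.37 (adjusted p = 0.268).

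Of the co-chaperones, neither Dnajc3 nor Sdf2l1 passed in a tissue comparison. Dnajc3, a J-domain partner of Hspa5, spanned 7.70 to 10.8 RPKM in organoids, 7.61 to 13.3 RPKM in villi and 8.54 to 14.6 RPKM in crypts, the narrowest range of the 10 genes. Its log2 changes were -0.31 ± 0.23 in organoids against crypts and -0.29 ± 0.23 in villi against crypts (SE, limma adjusted p = 0.294 and 0.308). Organoids against villi gave -0.02 ± 0.27 (adjusted p = 0.964), and 0.05 with annotated-gene scaling. Sdf2l1, found in a complex with ER J-domain proteins, had 8.51, 8.69 and 14.4 RPKM in organoids of ileum, jejunum and duodenum and 20.2, 15.01 and 13.4 RPKM in villi. Crypts had 11.2, 9.93 and 5.65 RPKM in replicate 1 and 36.7, 27.4 and 29.5 RPKM in replicate 2, so that organoids overlapped replicate 1 and villi lay between the replicates. Organoids against crypts gave -0.64 ± 0.49 (adjusted p = 0.299), and the adjusted p was 0.0373 with the crypt replicate number as a block. Against crypt replicate 1 alone Sdf2l1 was at 0.23 in organoids and 0.82 in villi (adjusted p = 0.53 and 0.0287), and against replicate 2 alone at -1.51 and -0.91 (0.000838 and 0.0146), so its direction depends on which crypt library is used. Against all crypts villi gave -0.05 ± 0.49 (adjusted p = 0.944), and 0.24 with TMM scaling.

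The disulfide isomerases Pdia4 and Pdia6 followed each other closely and were low in duodenal villi. Pdia6 had 46.8, 46.3 and 48.4 RPKM in organoids of ileum, jejunum and duodenum, the 3 values closest together of any gene here, and 37.7, 17.7 and 6.50 RPKM in villi. Its crypt values were 48.1, 41.7 and 33.5 RPKM in replicate 1 and 63.2, 50.3 and 100.2 RPKM in replicate 2. Pdia4 had 27.0, 35.3 and 29.4 RPKM in organoids, 23.3, 14.6 and 5.63 RPKM in villi, and 24.3, 30.3 and 16.5 RPKM in crypt replicate 1 against 39.8, 34.8 and 65.6 RPKM in replicate 2. For both genes organoids lay above all villi and within the crypt range, and ileal villi reached into the crypt range. In villi against crypts Pdia6 changed by -1.61 ± 0.42 (SE, limma adjusted p = 0.00638) and Pdia4 by -1.29 ± 0.42 (adjusted p = 0.0206), and both passed against each crypt replicate alone. Without the duodenal villus library they were at -0.95 (adjusted p = 0.0812) and -0.77 (0.199), and without the jejunal one Pdia4 had an adjusted p of 0.0605.

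In organoids against villi Pdia6 was higher by 1.46 ± 0.49 (SE, limma adjusted p = 0.0198) and Pdia4 by 1.21 ± 0.49 (adjusted p = 0.0453). The call of Pdia6 was lost without the jejunal organoid library (0.0668), the duodenal organoid library (0.0839) or the duodenal villus library, where the change was 0.79 (0.155). The call of Pdia4 was lost in 7 of the 12 fits that leave out 1 library. Those were the fits without any 1 of the organoid libraries (0.0589, 0.129 and 0.142 without ileum, jejunum and duodenum), the jejunal villus library (0.0892), the duodenal villus library (0.273, with a change of 0.68) or either jejunal crypt library (0.0539 and 0.052). It was also lost with TMM scaling (0.0557) and with no filter on low values (0.085). In organoids against crypts the changes were -0.16 ± 0.42 for Pdia6 and -0.08 ± 0.42 for Pdia4 (adjusted p = 0.779 and 0.883), and 0.21 and 0.38 against crypt replicate 1 alone. Pdia4 and Pdia6 had a Pearson correlation of 0.97 over the 12 libraries, and Hspa5 had 0.91 with each.

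Creld2, an ER protein with isomerase activity, was highest in crypts. It had 8.56, 5.95 and 9.95 RPKM in organoids of ileum, jejunum and duodenum and 14.6, 9.91 and 9.29 RPKM in villi. Crypts had 18.6, 20.2 and 18.5 RPKM in replicate 1 and 36.4, 36.7 and 39.8 RPKM in replicate 2, above every library of the other tissues. Creld2 fell by 1.63 ± 0.32 on the log2 scale in organoids against crypts (SE, limma adjusted p = 0.00124), a call that held without any 1 of the 12 libraries and against each crypt replicate alone (-1.16 and -2.10, adjusted p = 0.00158 and 6.51e-05). It fell by 1.21 ± 0.32 in villi against crypts (adjusted p = 0.00659), a call lost only without the duodenal villus library (0.0534) among the fits that leave out 1 library. Organoids against villi gave -0.42 ± 0.37 (adjusted p = 0.338).

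The libraries of 2 tissues did not overlap for Xbp1, Ern2 and Creld2 in organoids against crypts, as for 38.2% of genes tested. In villi against crypts this held for Ern2, Hsp90b1 and Creld2, as for 48.2% of genes. In organoids against villi it held for Xbp1, Ddit3, Hsp90b1, Pdia4 and Pdia6, as for 70.5% of genes. RNA of other cells was present in villi. The summed RPKM of 7 T cell and leukocyte markers was 0.115 to 0.246 in organoids, 50.8 to 202 in villi and 0.492 to 3.35 in crypts. The summed RPKM of 10 plasma and B cell markers, a secretory lineage that also uses Xbp1, was 35.8 to 47.9 in organoids, 29.3 to 129 in villi and 27.2 to 55.1 in crypts, most of it from Sdc1, which epithelium expresses too. Of the 10 markers, 3 (Tnfrsf17, Cd79a and Irf4) were at 0 in every organoid library. Tnfrsf17 and Irf4 were also low in villi, at up to 0.203 and 0.141 RPKM. In contrast, Cd79b had 2.24 to 6.17 RPKM in organoids and 1.37 to 9.02 RPKM in villi. Pou2af1 had 0.36 to 0.74 RPKM in organoids and 0.06 to 1.32 RPKM in villi. The part of plasma and B cells, T cells and leukocytes in the villus values was not tested.

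Along the length of the intestine none of the 10 genes passed. For ileum against duodenum over the 3 tissues 0 of 10 passed by limma, where 72 of 11825 genes (0.609%) passed. Of the 10 genes, 0 had an unadjusted limma p under 0.05 (989 of all genes), and 0 passed by limma-voom (146 of all genes). The log2 differences lay between -0.38 ± 0.35 (Ddit3) and 0.81 ± 0.48 (Ern2) (SE, lowest adjusted p = 0.779, for Dnajc3). Creld2 was at 0.07 ± 0.32, and at 0.00 with TMM scaling. For ileum against jejunum 0 of 10 passed, where 0.0423% of genes passed. Here 0 of 10 had an unadjusted limma p under 0.05 (518 of all genes), and 0 passed by limma-voom (6 of all genes). For jejunum against duodenum 0 of 10 passed, with 0 unadjusted and 0 by limma-voom, and 0 of the 11825 genes passed (343 at an unadjusted p under 0.05). In crypts alone, ileum against duodenum, 0 of 10 passed, where 0.0348% of 11491 genes passed. There 0 of 10 had an unadjusted limma p under 0.05 (496 of all genes), and 0 passed by limma-voom (0 of all genes).

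Within villi, which have 1 library per origin and so no test, the genes were ordered along the intestine. Of the 10 genes, 9 had more RPKM in ileum than in jejunum and more in jejunum than in duodenum, as did 41.8% of all genes tested, and Ddit3 had the reverse order, as did 11.8%. The log2 difference of ileum minus duodenum in villi was 2.37 for Pdia6, 1.88 for Pdia4, 1.25 for Ern2, 1.02 for Hspa5 and -0.89 for Ddit3. Its median over the 10 genes was 0.70 in villi, 0.01 in organoids and -0.07 in crypts, beside 0.22, 0.05 and -0.03 over all genes. In organoids none had the order of ileum above jejunum above duodenum, as did 14.1% of genes, and Sdf2l1 alone had the reverse, as did 8.19%. In crypts 2 genes had that order, as did 21.0% of genes, and 2 had the reverse, as did 22.7%.

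**Figure D4:**
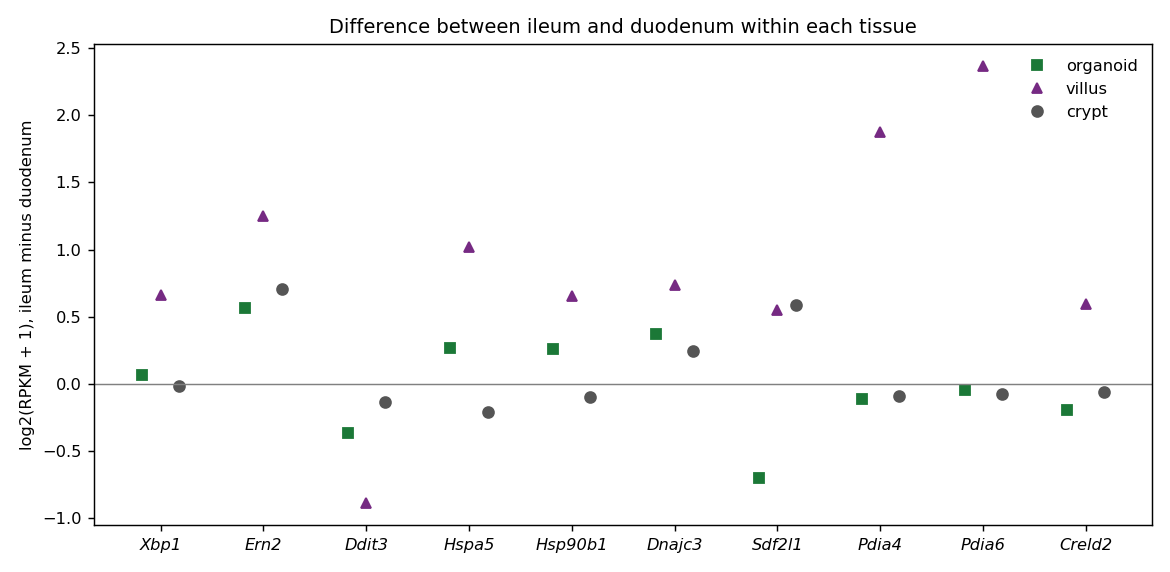
Difference on the log2(RPKM + 1) scale between ileum and duodenum for each gene within organoids and villi (1 library per origin) and crypts (mean of 2 libraries per origin). In villi Pdia6 and Pdia4 lie at 2.37 and 1.88, while in organoids they lie at -0.05 and -0.12 and in crypts at -0.07 and -0.09.

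Whether the difference between ileum and duodenum differs from that of crypts was tested with limma in a model of all 9 groups, which takes the spread of single libraries to be that of the crypt pairs. For organoids 0 of 10 genes passed, with 0 unadjusted and 0 by limma-voom, and 0 of 12740 genes passed (333 unadjusted). For villi 0 of 10 passed, with 0 unadjusted and 0 by limma-voom (1 at an unadjusted p under 0.05 by limma-voom), and 0 of 12740 genes passed (463 unadjusted). Marker sums also differed between the villus libraries, in various orders. In villi of ileum, jejunum and duodenum the plasma and B cell sum was 129, 38.4 and 29.3 RPKM, with 91.7, 27.4 and 18.3 RPKM of it from Sdc1. The T cell and leukocyte sum had the reverse order, at 50.8, 105 and 202 RPKM, as had the enterocyte sum, at 50668, 55485 and 100956 RPKM. The goblet sum was 23623, 11143 and 13178 RPKM and the Paneth sum 5926, 5478 and 6822 RPKM, neither in an order along the intestine. Of the Paneth sum, however, 3409, 4301 and 6591 RPKM came from Guca2b. Every other Paneth marker above 0 was highest in ileum and lowest in duodenum, such as Lyz at 204, 79.8 and 18.6 RPKM. The goblet markers Agr2, Spdef, Atoh1, Spink4 and Ccl9 also had this order, whereas Tff3, Clca1 and 1810010M01Rik did not. The part of these cell types in the order of the 10 genes was not tested.

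Counts over lists of the wider secretory pathway are given beside the shares of all genes tested, and no list was tested as a group. Those shares were 23.3% higher and 24.0% lower in organoids against crypts, 20.3% and 32.5% in villi against crypts, and 36.0% and 25.6% in organoids against villi. Of 23 genes for entry into the ER (the translocon, signal peptidase, the TRAP complex and oligosaccharyltransferase), 10 rose and 1 fell in organoids against crypts (43.5% and 4.35%, beside 23.3% and 24.0% of all genes), with a median log2 change of 0.56. Ssr4, a TRAP subunit, had 1245 ± 414 RPKM in organoids (SD, n = 3) and 241 ± 78.8 RPKM in crypts (n = 6), a log2 change of 2.36 ± 0.39 (SE, limma adjusted p = 0.000399), and Spcs1, of signal peptidase, rose by 1.73 (adjusted p = 0.00197). Sec61a1, the channel of the translocon, was the exception, at 30.3 ± 6.23 RPKM in organoids and 99.8 ± 28.8 RPKM in crypts, a log2 change of -1.65 (adjusted p = 0.00113). Against crypts, villi had 0 of the 23 higher and 7 lower (0% and 30.4%, beside 20.3% and 32.5%; median -0.60), Sec11c, Sec63 and Sec62 (deposited as Tloc1) among them at -1.37, -0.90 and -0.98. Against villi, organoids had 15 higher and 1 lower (65.2% and 4.35%, beside 36.0% and 25.6%; median 1.28), with Ssr4 at 3.21, Sec11c at 2.20 and Sec61b at 2.22.

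Of 23 tested genes of ER-associated degradation, which removes misfolded proteins, 1 rose and 11 fell in organoids against crypts (4.35% and 47.8%, beside 23.3% and 24.0% of all genes), with a median log2 change of -0.20. Vcp, the ATPase that extracts proteins from the ER, had 5.39 ± 0.96 RPKM in organoids (SD, n = 3) and 50.5 ± 6.51 RPKM in crypts (n = 6), a log2 change of -3.01 ± 0.21 (SE, limma adjusted p = 2.93e-06). Os9, a lectin that hands over misfolded glycoproteins, was at -2.33 and Sel1l, which holds the ligase complex together, at -1.58 (adjusted p = 2.29e-05 and 0.000134). Villi had 5 higher and 2 lower than crypts (21.7% and 8.7%, beside 20.3% and 32.5%, median 0.14), with Vcp at -1.90 and Derl3 at -1.25 lower and Fam8a1 (deposited as C78339), a membrane protein of the same ligase complex, higher at 2.05. Organoids had 1 higher and 10 lower than villi (4.35% and 43.5%, beside 36.0% and 25.6%, median -0.67), Os9 at -3.19, Syvn1 at -2.20 and Nploc4 at -1.83 among them.

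Of 25 further ER chaperones and folding enzymes, 4 rose and 4 fell in organoids against crypts (16.0% each way, beside 23.3% and 24.0% of all genes, median 0.11). Those with the smallest p were all lower: Hyou1, the HSP110 of the ER, had 4.42 ± 1.59 RPKM in organoids (SD, n = 3) and 22.0 ± 9.77 RPKM in crypts (n = 6), a log2 change of -2.01 (limma adjusted p = 0.000826), with Txndc11 at -1.56 and Uggt1 (deposited as Ugcgl1), the glycoprotein folding sensor, at -1.03. Villi had 3 higher and 11 lower than crypts (12.0% and 44.0%, beside 20.3% and 32.5%, median -0.54). Fkbp11, a prolyl isomerase of secretory cells, had 33.4 ± 8.46 RPKM in organoids, 1.25 ± 1.37 RPKM in villi and 13.3 ± 5.23 RPKM in crypts, with log2 changes of -2.76 in villi against crypts and 4.08 in organoids against villi (adjusted p = 1.8e-05 and 2.79e-06). Pdia5 was at -1.39 in villi against crypts. Set against villi, organoids had 9 higher and 5 lower (beside 36.0% and 25.6% of all genes, median 0.48), with Ppib, the cyclophilin of the ER, at 2.22 and Dnajc10 at 1.72.

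Of 28 tested genes of ER to Golgi traffic, 5 rose and 4 fell in organoids against crypts (17.9% and 14.3%, beside 23.3% and 24.0% of all genes, median 0.10), Kdelr2, a receptor that returns ER proteins, at 1.48 and the coat subunits Copg1 (deposited as Copg) and Sec24c at -1.42 and -1.46. Villi had 12 higher and 1 lower than crypts (42.9% and 3.57%, beside 20.3% and 32.5%, median 0.65). Creb3l2, a factor that drives coat genes in other tissues, had 19.01 ± 7.74 RPKM in villi (SD, n = 3) and 2.55 ± 1.90 RPKM in crypts (n = 6), a log2 change of 2.54 (limma adjusted p = 4.88e-05), Mia2 was at 2.34, and Tmed9 was the one that fell, at -1.56. Organoids had 1 higher and 11 lower than villi (3.57% and 39.3%, beside 36.0% and 25.6%, median -0.64), with Sec24d, a cargo-binding coat subunit, at -3.39 and Creb3l2 at -2.98.

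Of 13 sensors and transducers of the response in the ER membrane and genes linked to them, 2 rose and 5 fell in organoids against crypts (15.4% and 38.5%, beside 23.3% and 24.0% of all genes, median -0.63), with Atf6b (deposited as Crebl1) at -1.88, Wfs1 at -1.17 and the death gene Bbc3 at -1.73. In villi against crypts 5 rose and 2 fell (38.5% and 15.4%, beside 20.3% and 32.5%, median 0.27). Eif2ak3, which encodes PERK, had 5.47 ± 0.51 RPKM in villi (SD, n = 3) and 1.58 ± 0.47 RPKM in crypts (n = 6), a log2 change of 1.34 (limma adjusted p = 0.000229), while Bhlha15 (deposited as Bhlhb8), a factor of secretory cells, was at -2.19. Tmbim6 (deposited as Tegt), an ER membrane protein that protects from cell death, had 98.0 ± 13.3 RPKM in organoids, 1140 ± 96.5 RPKM in villi and 244 ± 119 RPKM in crypts, with a log2 change of 2.38 in villi against crypts and of -3.53 in organoids against villi. In organoids against villi 2 were higher and 7 lower (15.4% and 53.8%, beside 36.0% and 25.6%, median -0.78).

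Of 32 genes of the integrated stress response, the arm that leads through Atf4 to Ddit3, 7 rose and 8 fell in organoids against crypts, shares close to the 23.3% and 24.0% of all genes (median 0.08). Atf3, a stress-induced factor, had 3.66 ± 0.73 RPKM in organoids (SD, n = 3) and 103 ± 41.7 RPKM in crypts (n = 6). Its log2 change was -4.39 ± 0.34 (SE, limma adjusted p = 5.62e-06), whereas Eif4ebp1, a repressor of translation, rose by 2.40. Stc2 rose by 1.81 on the log2(RPKM + 1) scale from a very low level, with 2.77 ± 1.75 RPKM in organoids and 0.009 ± 0.022 RPKM in crypts. Set against crypts, villi had 4 higher and 16 lower (12.5% and 50.0%, beside 20.3% and 32.5%, median -0.62), Shmt2 and Mthfd2, enzymes of one-carbon metabolism in mitochondria, at -2.62 and -2.46. Ppp1r15a (deposited as Myd116), which reverses the block on translation, was at -2.997. From the same list, organoids had 14 higher and 6 lower than villi (43.8% and 18.8%, beside 36.0% and 25.6%, median 0.52). Asns, which makes asparagine, had 93.1 ± 42.3 RPKM in organoids and 3.91 ± 1.27 RPKM in villi, a log2 difference of 4.20 (adjusted p = 5.95e-06), and Psat1, of serine synthesis, was at 4.13. Ddit3, which was lower in organoids than in villi, thus had the opposite direction to Asns and Psat1 in that comparison.

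Of 18 tested heat shock proteins of the cytosol and mitochondria, which lie outside the ER, 1 rose and 14 fell in villi against crypts (5.56% and 77.8%, beside 20.3% and 32.5% of all genes, median -1.42), with Hspd1, a mitochondrial chaperonin, at 4.42 ± 1.63 RPKM in villi (SD, n = 3) and 49.5 ± 26.7 RPKM in crypts (n = 6), a log2 change of -3.14 (limma adjusted p = 1.62e-05). In organoids against crypts 4 rose and 6 fell (22.2% and 33.3%, beside 23.3% and 24.0%, median -0.46), with Hsph1 (deposited as Hsp110) at -1.67 and Dnajb1 at -1.77. Organoids had 10 higher and 2 lower than villi (55.6% and 11.1%, beside 36.0% and 25.6%, median 1.32), with Hspe1 at 4.39, Cct5 at 2.95 and Hspa8 at 2.58. For ileum against duodenum over tissues none of the genes of these 7 lists passed.

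**Figure D5:**
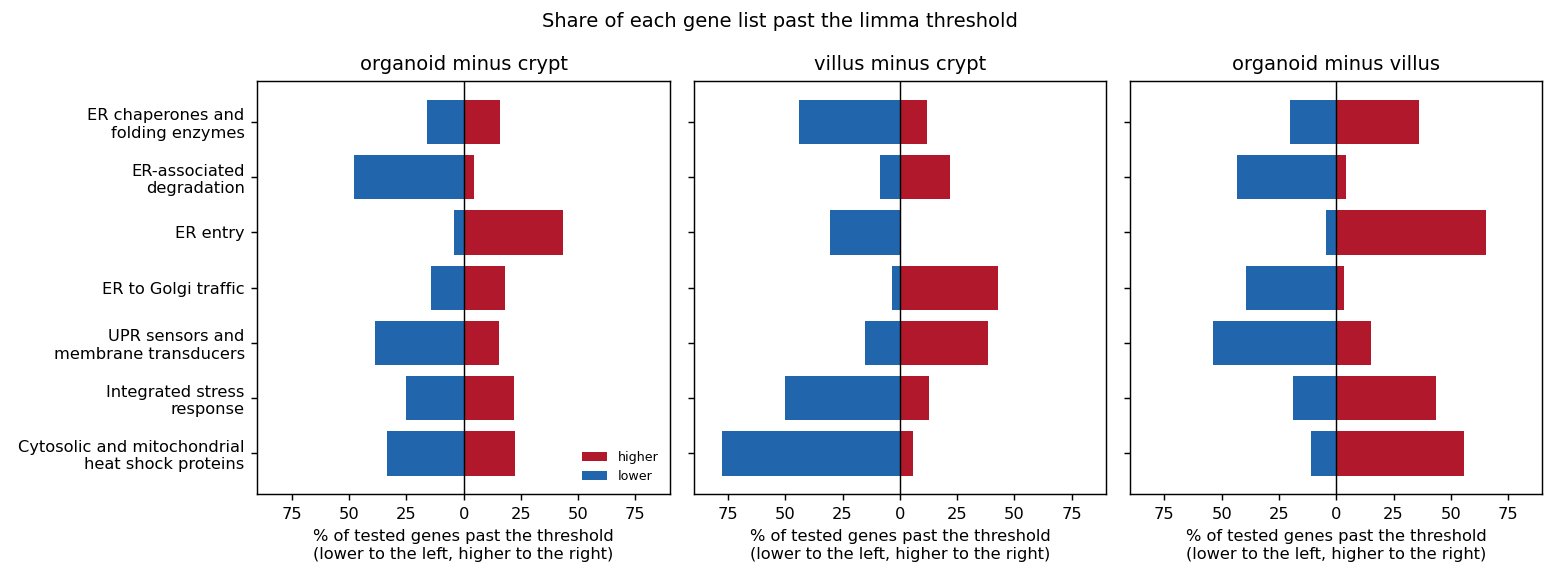
Share of the tested genes of each list that passed the limma threshold in organoids against crypts, villi against crypts and organoids against villi, with genes lower in the first-named tissue to the left of 0 and genes higher in it to the right. In organoids against crypts 10 of 23 ER entry genes lie to the right and 11 of 23 ER-associated degradation genes to the left.

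The genes whose pattern over the 12 libraries was most like that of 4 of the members were ranked by Pearson correlation of log2(RPKM + 1) among 6386 tested genes with a mean of at least 5 RPKM. For Xbp1 these were Arpc3 (0.987), Ormdl2 (0.982) and Vta1 (0.978). For Hspa5 they were Pdia3 (0.971), an ER disulfide isomerase of glycoproteins, Ythdf1 (0.963) and Rpn1 (0.957), a subunit of oligosaccharyltransferase. For Ern2 they were Miip (0.962, deposited as D4Wsu114e), Wnk4 (0.954) and Fermt1 (0.954, deposited as 5830467P10Rik). For Ddit3 they were Bbc3 (0.900), which encodes the death factor PUMA, Dgcr6 (0.893) and Pmepa1 (0.889, deposited as Tmepai). These values describe the libraries, which share tissues, origins and preparations.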

How the data were processed

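Poly(A) RNA from mouse organoids, villi and crypts was read as 50-bp SOLiD reads and aligned with BWA to mm9, per the submitters' processing notes and the labels' protocols. The sources used here give no counting rule, use of strand or gene models. Each transcript has 1 deposited RPKM value per library, per the file headers. The tables hold 21247 transcripts, and 18507 of their 19012 symbols matched a current symbol by accession. Dividing by the step of 1 read gave whole numbers (tolerance 0.02) for 100% of values in each library up to the limit of the files' decimals. limma 3.58.1 in R 4.3.3 was fitted to log2(RPKM + 1) with a mean-variance trend, a scale that understates changes of low genes. The fit of tissues and origins was additive, used all 12 libraries and left 7 residual degrees of freedom, so origins serve as replicates of organoids and villi, and a preparation shared by a tissue cannot be told apart from it. The fit of crypts alone left 3. Tested genes reached 10 reads, at median depth, in 3 libraries (2 for crypts, 1 for the model of 9 groups) and 15 reads in all, and p-values were adjusted over all of them. The plan assumed counts, but the files hold RPKM, so limma replaced a count test. limma-voom on recovered reads was an alternative and called 6316, 6681 and 7713 genes in organoids against crypts, villi against crypts and organoids against villi. Equally numbered crypt libraries deviated together (r = 0.419, 0.506 and 0.788 over 11491 genes), so the number served as a block in an alternative fit. Text names all 10 genes, up to 3 genes of each list with the smallest p per tissue comparison, and the 3 genes most like each of 4 members. One item of a marker list is not reported here. The members and lists were chosen with earlier results of these data known.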

Additional observations from a re-analysis of the deposited data

How the results depend on the processing

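Depth, the single organoid and villus library per origin and the gap between crypt replicates limit these results. Of 480 values of the 10 genes under other settings, 440 kept their direction and side of the threshold, and 435 of 480 with 1 library left out. The replicate block changed 2 calls of the 10 genes, Sdf2l1 in organoids against crypts (adjusted p = 0.0373) and Xbp1 in organoids against villi (0.00803). In all cases below the cause was not tested, and settings with crypt replicate 1 or 2 alone, or with the replicate block and TMM together, were chosen after seeing the data.

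Of the 10 genes, 6 were lower in organoids against crypts with annotated-gene scaling (3 as deposited). With the block and TMM together 1 was higher in villi against crypts and 3 were lower in organoids against villi, and against crypt replicate 1 alone 2 were higher in villi. Leaving out 1 library gave 0 to 1 higher and 1 to 3 lower in organoids against crypts, 2 to 6 lower in villi against crypts, and 1 to 4 higher and 0 to 1 lower in organoids against villi. The lowest of these came without an organoid or the duodenal villus library. Over all genes, leaving out 1 library gave 3563 to 6378 calls in organoids against crypts.

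These log2 values changed sign. In organoids against crypts with crypt replicate 1 alone, Hsp90b1 was at 0.038, Sdf2l1 at 0.23, Pdia4 at 0.38 and Pdia6 at 0.21. In villi against crypts, Xbp1 was at -0.036 and Ddit3 at -0.11 with annotated-gene scaling, Xbp1 at -0.16 with replicate 2 alone and Ddit3 at -0.21 with replicate 1 alone. Sdf2l1 there was at 0.24 with TMM, with or without the block, 0.18 with voom and 0.82 with replicate 1 alone. In organoids against villi Dnajc3 was at 0.052 with annotated-gene scaling. For ileum against duodenum Creld2 was at -0.019 with annotated-gene scaling, -0.0039 with TMM, with or without the block, and -0.0017 with voom. With 1 library left out, sign changes lay within these ranges: Pdia4 -0.25 to 0.23 and Pdia6 -0.33 to 0.13 in organoids against crypts, Ddit3 -0.015 to 0.44 and Sdf2l1 -0.37 to 0.19 in villi against crypts, Dnajc3 -0.14 to 0.13 in organoids against villi, and Xbp1 -0.13 to 0.53, Sdf2l1 -0.23 to 0.59 and Creld2 -0.13 to 0.30 for ileum against duodenum.

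Origin comparisons called 0 of the 10 genes under every setting run, and their counts over all genes varied. For ileum against duodenum 72 genes became 113 with a pseudocount of 0.1, 17 with no filter, 146 with voom, 302 with the replicate block, 287 with block and TMM, 113 with crypt replicate 1 alone, 153 with replicate 2 alone, and 34 to 94 with 1 library left out. For jejunum against duodenum 0 became 8 with the block, 10 with block and TMM, 1 with replicate 1 alone, 10 with replicate 2 alone, and 0 to 6 with 1 library left out. For ileum against jejunum 5 became 9 and 8 with pseudocounts of 0.1 and 0.5, 0 with no filter, 32 with the block, 24 with block and TMM, 2 with replicate 2 alone, and 0 to 11 with 1 library left out. For ileum against duodenum in crypts 4 became 1 with a pseudocount of 0.1, 0 with no filter, 0 with voom, 37 with the block, 73 with block and TMM, and 0 to 6 with 1 library left out. For the difference of organoids or villi from crypts in ileum against duodenum, 0 became 362 and 497 with no filter. That setting adds genes of low values, with 16112 genes tested in place of 12740.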
